A study of Mus musculus with 4 samples.

Results

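Jun, Junb, Fosb and Egr1 are immediate early transcription factors on a targeted immune panel, and they are described here in single brain cells of 5XFAD mice with and without Abi3. The members were chosen by name, as 4 of the 397 genes of the panel, and all 4 passed every filter on low counts. Cells were kept when they had reads of 40 or more genes and no more reads than the upper limit of the study's methods, which left 13820 of 21172 cells. Single cells came from the right brain hemisphere, without cerebellum and olfactory bulb, of 4 male mice aged 9 months. All mice carried the 5XFAD transgenes, which express mutant human amyloid precursor protein and presenilin in neurons, so no mouse without amyloid disease was part of the comparison. Abi3-/- mice 1 and 2 lacked Abi3 in every tissue through a null allele, and Abi3+/+ mice 1 and 2 did not, with 1 library per mouse, so a library and a mouse cannot be told apart. Abi3 was not on the panel, and the genotypes rest on the labels.

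Immediate early genes are transcribed within minutes of a stimulus, without new protein synthesis. Jun, Junb and Fosb encode basic leucine zipper proteins that pair to form the AP-1 transcription factor, in which a FOS family member such as Fosb needs a JUN partner. Egr1 encodes a zinc finger factor that binds GC-rich sites. In microglia these genes follow signalling through mitogen-activated protein kinases, and they are also known to be induced while tissue is dissociated. The dissociation was kept at 4 °C, and its part in the values below was not tested.

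Jun, Junb and Fosb each matched an entry of RefSeq's promoter table for GRCm38.p6, the assembly of the mm10 build that the submitters name. On that build the genes lie at chr4:95049036-95052222, chr8:84976909-84978748 and chr7:19302696-19310118, all on the minus strand. Because the 3 genes fell together in the state comparison below, the 250 bases before the transcript start of that table are shown, 5′ to 3′ on the gene's strand, at chr4:95052223-95052472, chr8:84978749-84978998 and chr7:19310046-19310295. For Fosb that start lies inside the gene's outer limits as given above, so its window overlaps them, and its positions are counted from the table's start. Capitals mark the matches, on either strand, to TGACNTCA (the AP-1 and cAMP response element class), TGACG (its shorter form) or GCGNGGGCG (the Egr family motif).
Jun: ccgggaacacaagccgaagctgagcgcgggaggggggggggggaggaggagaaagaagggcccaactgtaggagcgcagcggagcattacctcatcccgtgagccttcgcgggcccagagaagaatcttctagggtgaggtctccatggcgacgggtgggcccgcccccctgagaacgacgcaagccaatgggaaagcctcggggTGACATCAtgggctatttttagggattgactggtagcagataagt
Junb: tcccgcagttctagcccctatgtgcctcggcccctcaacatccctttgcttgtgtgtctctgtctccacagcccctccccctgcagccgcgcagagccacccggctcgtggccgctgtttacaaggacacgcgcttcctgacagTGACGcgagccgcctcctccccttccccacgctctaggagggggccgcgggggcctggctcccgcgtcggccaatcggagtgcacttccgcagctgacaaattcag
Fosb: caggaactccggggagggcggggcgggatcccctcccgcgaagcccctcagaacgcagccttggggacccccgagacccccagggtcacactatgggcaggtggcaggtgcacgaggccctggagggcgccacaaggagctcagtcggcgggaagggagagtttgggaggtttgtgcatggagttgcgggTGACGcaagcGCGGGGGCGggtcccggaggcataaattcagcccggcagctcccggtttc

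Jun holds TGACATCA from base -45 to -38, counted back from the start of the transcript. Junb holds TGACG from -106 to -102. Fosb holds TGACG from -60 to -56 and GCGGGGGCG from -50 to -42. Among the promoters of 27025 genes, cut to the same 250 bases, 7.59% held TGACNTCA, 17.9% held TGACG and 4.65% held GCGNGGGCG. The shorter AP-1 motif TGANTCA, found in 6.87% of all promoters, and the CArG box of serum response factor, found in 1.40%, were in none of the 3 windows. TGACNTCA contains TGACG when its N is G, which was not the case in Jun. A match is a description of letters and not a binding site.

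A cell was called microglia when it had a read of Trem2, the microglial lipid receptor, and met no rule for another class. The 13081 microglia were 2187 and 4234 cells of Abi3-/- mice 1 and 2, and 3660 and 3000 cells of Abi3+/+ mice 1 and 2. Of the check genes, C1qa had a read in 99.7% of them, C1qb in 98.8%, Selplg in 98.4% and Cx3cr1 in 88.0%. T cell-like (286 cells), neutrophil-like (102), B cell-like (49) and macrophage-like cells (24) had reads of at least 3 markers of their class and none of Trem2. The remaining 278 cells stayed unassigned. Kept reads ran from 61058416 to 102612276 per library and median reads per cell from 19647.5 to 24283, and any 2 libraries shared 6 to 18 cell labels among the kept cells. The values are reads and not molecules, so intervals on shares cover counting error alone.

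In microglia, Jun had a read in 68.0% and 74.0% of cells of Abi3-/- mice 1 and 2, and in 79.1% and 77.0% of cells of Abi3+/+ mice 1 and 2. Egr1 had a read in 60.5% and 64.3% of Abi3-/- and in 76.0% and 74.4% of Abi3+/+ microglia. Fosb had a read in 24.6% and 31.5% of Abi3-/- and in 49.2% and 46.2% of Abi3+/+ microglia. For these 3 genes both Abi3-/- mice lay below both Abi3+/+ mice, as they did for 16.7% of the 329 genes tested between genotypes. Junb had a read in 73.2% and 71.6% of Abi3-/- microglia, but in 77.5% of Abi3+/+ mouse 1 and 46.6% of Abi3+/+ mouse 2. That library also had the lowest Junb share in each class and state described below, although in macrophage-like cells this was 1 of 4 cells against 1 of 3 in Abi3-/- mouse 1. Over the 209 genes with more than 50 RPM (reads scaled to a common library total, without TMM) in the microglia of at least 1 mouse, Junb in Abi3+/+ mouse 2 lay 1.68 log2 units under the lowest of the other mice, and 2 genes, Junb included, lay at least that far under. In microglia with a read of Junb, the median was 43 reads in that library and 92 to 116 in the others.

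A positive cell had many reads of each gene. The fewest reads in any positive microglial cell were 9 to 13 for Jun, 6 to 8 for Junb, 8 to 11 for Fosb and 9 to 11 for Egr1 across the 4 libraries. The mean share in microglia was 74.5% for Jun, 67.2% for Junb, 37.9% for Fosb and 68.8% for Egr1, and counting a cell as positive from 10 reads on gave 74.5%, 65.2%, 37.6% and 68.7%. With every cell thinned to 10000 reads, which left out 26 and 288 cells of the Abi3-/- and 181 and 64 cells of the Abi3+/+ mice, these shares were 75.4%, 68.0%, 38.6% and 69.6%.

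The microglia were then split by reads of Apoe and Cst7, genes that rise in disease-associated microglia near amyloid. Apoe encodes the lipid carrier apolipoprotein E, and Cst7 encodes the cysteine protease inhibitor cystatin F. Apoe-Cst7- cells, without a read of either, numbered 5799, Apoe+Cst7- cells 2788, Apoe-Cst7+ cells 1130 and Apoe+Cst7+ cells 3364. Apoe+Cst7+ cells took 33.2% and 33.4% of microglia in Abi3-/- mice 1 and 2, against 17.6% and 19.4% in Abi3+/+ mice 1 and 2. For Apoe+Cst7- cells these shares were 38.3% and 17.9%, against 18.9% and 16.8%. For Apoe-Cst7- cells they were 22.2% and 37.4%, against 56.0% and 56.1%, so the Abi3-/- mice differed from each other in these states. The 4 immediate early genes were not used to set the states. The question was how each gene differed between states within the same mice.

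All 4 genes fell in Apoe+Cst7+ microglia against Apoe-Cst7- microglia, in every mouse and in both the share of positive cells and the summed reads. The share was lower in 4 of 4 mice for 26.1% of the genes tested. Egr1 had a read in 71.5% and 78.6% of the Apoe-Cst7- cells of Abi3-/- mice 1 and 2, and in 86.5% and 85.6% of those of Abi3+/+ mice 1 and 2. In Apoe+Cst7+ cells its shares were 49.8%, 45.0%, 40.1% and 39.4% in the same order of mice. The lowest Apoe-Cst7- share lay above the highest Apoe+Cst7+ share, as in 13% of the 299 genes tested, and the mean difference was -37.0 percentage points ± 11.8 (SD, n = 4 mice). The summed reads of Egr1, in CPM (read counts scaled to a common library total) after TMM scaling (trimmed mean of M-values), were 14721, 22659, 22992 and 29361 in the Apoe-Cst7- sums and 8090, 8574, 7428 and 9096 in the Apoe+Cst7+ sums. Egr1 fell by 1.36 on the log2 scale (SE 0.14), with an adjusted p of 1.0e-05 from the quasi-likelihood test of edgeR with mouse as a block and Benjamini-Hochberg adjustment. Of the 299 genes tested in this comparison, 23.1% were lower, so a fall was common on this panel, and Egr1 ranked 31 from the lowest fold change.

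Jun, the AP-1 partner that can pair with itself, had a read in 74.2%, 83.7%, 87.3% and 85.8% of Apoe-Cst7- cells, in the order Abi3-/- 1, Abi3-/- 2, Abi3+/+ 1 and Abi3+/+ 2. In Apoe+Cst7+ cells its shares were 60.97%, 60.7%, 49.8% and 49.6%. The states did not overlap, and the mean difference was -27.5 percentage points ± 11.5 (SD, n = 4 mice). Jun fell by 0.90 on the log2 scale (SE 0.09, adjusted p = 1.0e-05, edgeR).

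Junb, a JUN family member that can also restrain AP-1, had a read in 81.2%, 82.9%, 85.8% and 53.6% of Apoe-Cst7- cells and in 64.1%, 54.8%, 46.7% and 28.7% of Apoe+Cst7+ cells. The states overlapped across mice because of Abi3+/+ mouse 2, while Junb was lower in Apoe+Cst7+ cells in 4 of 4 mice. The mean difference was -27.3 percentage points ± 9.09 (SD, n = 4 mice). Junb fell by 0.92 on the log2 scale (SE 0.11, adjusted p = 2.2e-05, edgeR), and by 0.94 without Abi3+/+ mouse 2 (adjusted p = 0.00044).

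Fosb, the FOS family member, had a read in 25.2%, 34.7%, 55.3% and 52.7% of Apoe-Cst7- cells and in 21.9%, 26.7%, 29.5% and 26.0% of Apoe+Cst7+ cells. Its states overlapped across mice through the 25.2% of Apoe-Cst7- cells in Abi3-/- mouse 1, and the other 3 Apoe-Cst7- shares lay above all 4 Apoe+Cst7+ shares. The mean difference was -15.9 percentage points ± 12.1 (SD, n = 4 mice). Fosb fell by 0.80 on the log2 scale (SE 0.17, adjusted p = 0.0022, edgeR).

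**Figure D1:**
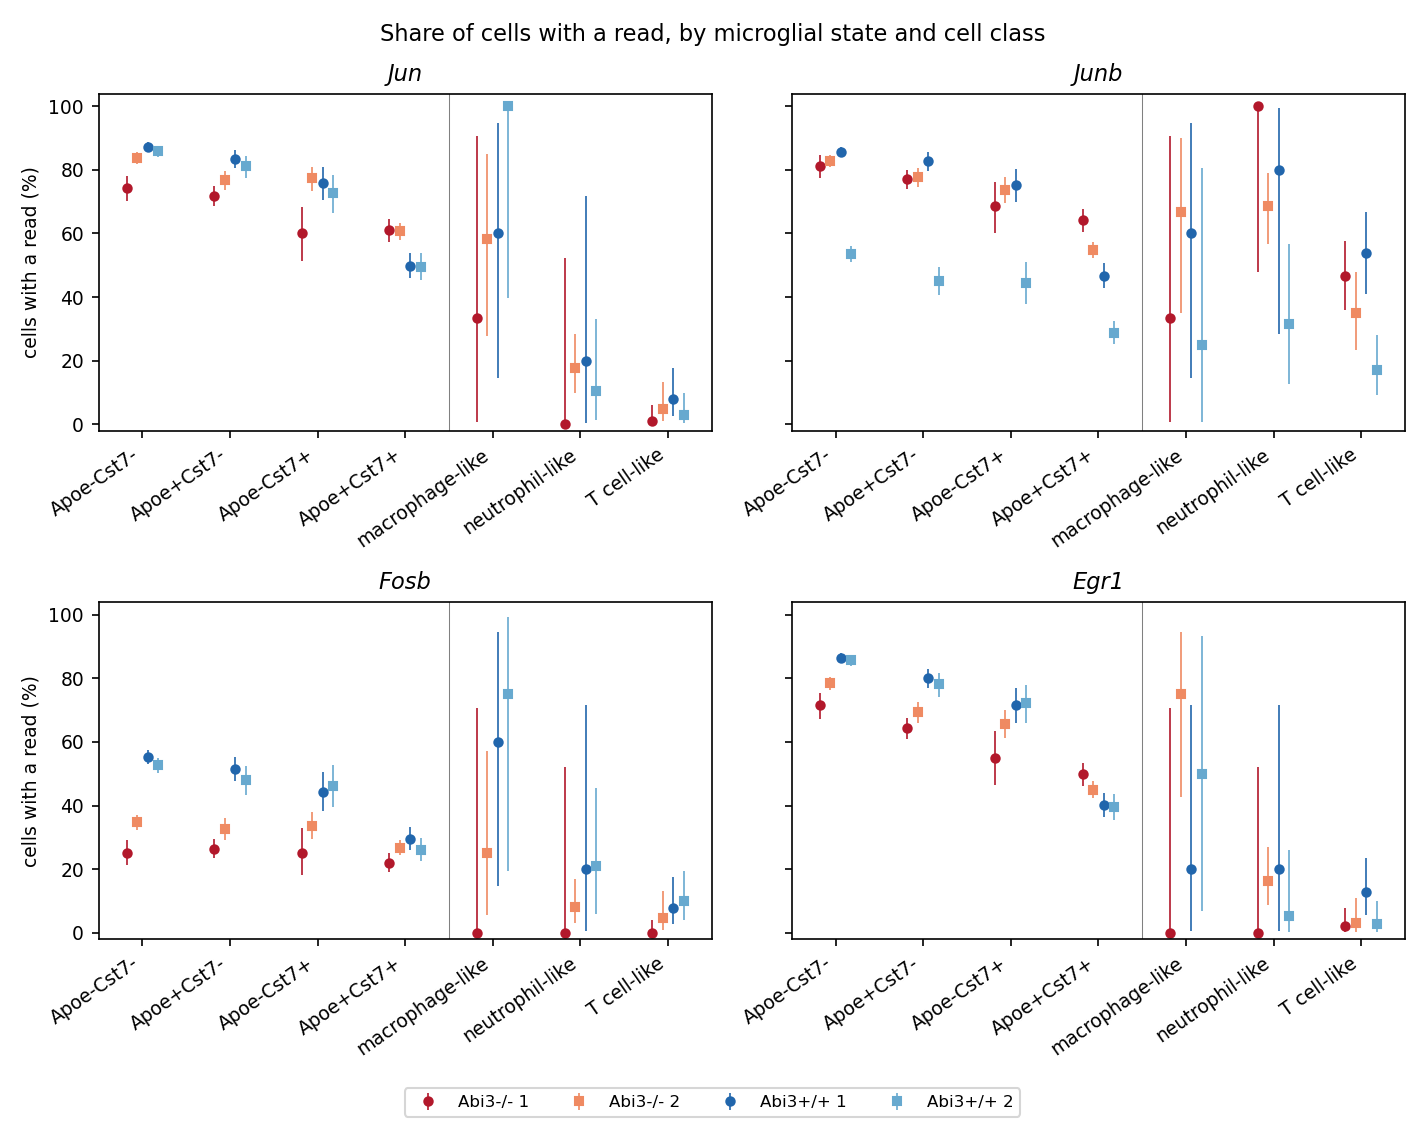
Share of cells with a read of each gene (y axis, percent) by microglial state and cell class (x axis), with 1 point per mouse and exact 95% binomial intervals that cover counting error alone. Among the microglial states each gene is lowest in Apoe+Cst7+ cells in every mouse, except Jun in Abi3-/- 1 (60.97% against 60% in Apoe-Cst7+ cells), Junb is low throughout in Abi3+/+ 2, and Jun, Fosb and Egr1 are at 12.7% or less in T cell-like cells.

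Cells with a read of these genes also held fewer of them per 10000 reads of the cell. In positive Apoe-Cst7- cells the median was 128 ± 29.7 for Jun, 47.2 ± 19.3 for Junb, 63.8 ± 21.2 for Fosb and 280 ± 78.0 for Egr1 (mean of the mouse medians ± SD, n = 4). In positive Apoe+Cst7+ cells it was 58.8 ± 11.95 for Jun, 22.6 ± 7.43 for Junb, 33.4 ± 5.63 for Fosb and 107 ± 25.8 for Egr1. Each median was lower in Apoe+Cst7+ cells in 4 of 4 mice, and for how many of all genes this held was not counted. In sums scaled by total reads a fall was common, with 125 of 299 genes called lower, 44 higher and a median log2 fold change of -0.62. Unscaled, the median reads of the 4 genes differed less. In the order Abi3-/- 1, Abi3-/- 2, Abi3+/+ 1 and Abi3+/+ 2, positive cells had a median of 423, 481, 518 and 808 reads of Egr1 in Apoe-Cst7- and 334, 289, 283 and 503 in Apoe+Cst7+ cells. For Fosb these medians were 94.5, 102, 138 and 194 reads, then 92, 95.5, 105.5 and 152, so that they were close in the Abi3-/- mice. For Junb they were 105, 101, 119 and 43, then 92, 80, 79 and 41. Read depth also differed between these states, with median reads per cell of 17000.5 to 20988 in Apoe-Cst7- and 27647.5 to 31908 in Apoe+Cst7+ cells. Thinned to 10000 reads, Jun fell by 0.93, Junb by 0.97, Fosb by 0.83 and Egr1 by 1.34 on the log2 scale, with adjusted p of 5.1e-06, 1.2e-05, 0.0014 and 1.2e-05 (edgeR). Among microglia with 20000 or more reads, the falls were 0.86, 0.84, 0.85 and 1.33 in the same order.

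The fall held its call under each alternative except that Junb (adjusted p = 0.27) and Fosb (adjusted p = 0.19) did not pass edgeR's test without mouse as a block. Scaling by total reads moved the median log2 fold change of all genes from -0.05 to -0.62 and the split of calls from 72 higher and 69 lower to 44 higher and 125 lower. On that scale the log2 fold change was -1.46 for Jun, -1.48 for Junb, -1.36 for Fosb and -1.91 for Egr1.

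Cells positive for Apoe or Cst7 alone lay between these states on average. In Apoe-Cst7+ cells the share with a read was lower than in Apoe-Cst7- cells in 4 of 4 mice for each gene. How many of all genes were lower in 4 of 4 mice was not counted for this comparison. The mean difference was -14.4 percentage points for Egr1, -11.2 for Jun, -10.4 for Junb and -4.65 for Fosb. For Fosb it was -0.155 and -1.02 points in Abi3-/- mice 1 and 2, and -10.9 and -6.52 in Abi3+/+ mice 1 and 2. Counted from 10 reads on, the share of Fosb was lower in 3 of 4 mice, and in Abi3-/- mouse 1 it differed by 0.05 points. The log2 fold changes in Apoe-Cst7+ cells were -0.41 (SE 0.13) for Egr1, -0.29 (SE 0.10) for Junb, -0.27 (SE 0.17) for Fosb and -0.26 (SE 0.09) for Jun. None of the 4 passed the adjusted threshold, with adjusted p of 0.097, 0.11, 0.36 and 0.10 (edgeR), and 1.0% of the 299 genes were called lower. Egr1, Jun and Junb passed under alternatives that also called more genes lower, 29 of 299 by total reads, 37 of 299 in DESeq2, 31 of 298 with states set by 10 reads and 16 of 299 with a library size without Apoe, Cst7 and Trem2. In Apoe+Cst7- cells the log2 fold changes were -0.29 (SE 0.17) for Fosb, -0.28 (SE 0.13) for Egr1, -0.25 (SE 0.09) for Jun and -0.23 (SE 0.10) for Junb, with adjusted p of 0.33, 0.22, 0.16 and 0.21. In that comparison 0.334% of the genes were called lower.

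**Figure D2:**
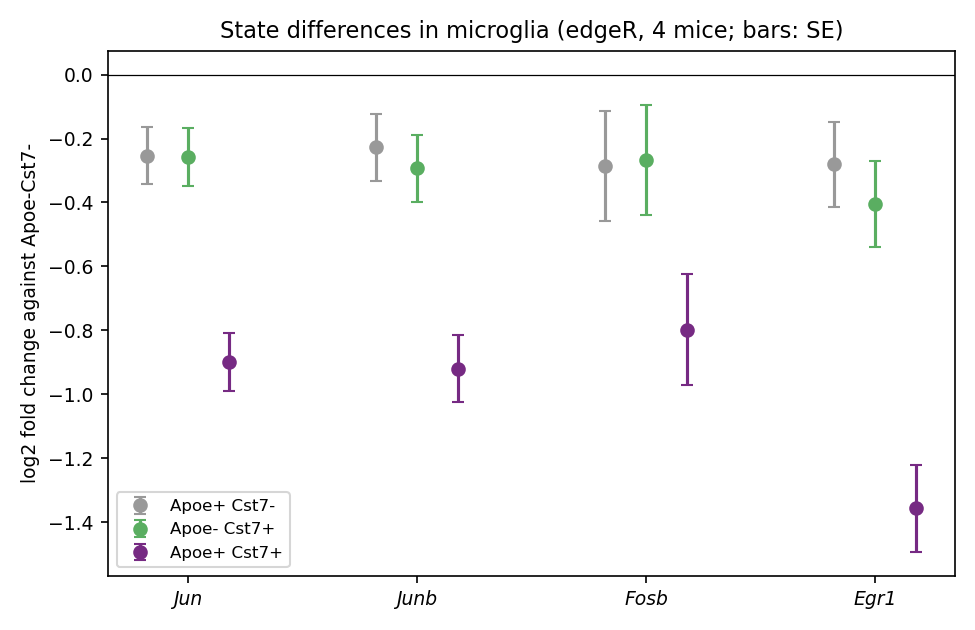
Log2 fold change of each gene (y axis) in 3 microglial states against Apoe-Cst7- cells, from edgeR on reads summed per mouse and state, with standard errors as bars. The Apoe+Cst7+ points, from -0.80 for Fosb to -1.36 for Egr1, lie under those of the states positive for Apoe or Cst7 alone.

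The panel holds other early response genes and the cytokines that such signals induce. Among 8 other AP-1, immediate early and early response genes, 3 were lower in Apoe+Cst7+ than in Apoe-Cst7- cells, 0 were higher and 5 did not pass the test, in a comparison where 23.1% of all genes were lower and 24.1% higher. Their median log2 fold change was -0.51, against -0.05 over all 299 genes and -0.91 over the 4 members. The 5 that did not pass include genes with a read in at most 0.86% of the cells of either state in any mouse. Btg1, an antiproliferative gene, fell by 0.64 (SE 0.07, adjusted p = 2.2e-05), Dusp1, the phosphatase that switches off mitogen-activated protein kinases, fell by 0.53 (SE 0.11, adjusted p = 0.0018), and Ier3, a stress response gene, fell by 0.49 (SE 0.11, adjusted p = 0.0037, all by edgeR). By total reads, these 3 genes were lower in Apoe+Cst7+ cells in each mouse, and so were genes of the list that did not pass the test. On that scale 125 of 299 genes were called lower, and how many of all genes were lower in each mouse was not counted. The share of cells with a read of Ier3 was higher in Abi3-/- mouse 1, at 28.3% against 26.4% in Apoe-Cst7- cells, and lower in the other mice.

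The early response cytokines and chemokines went both ways. Of 10 genes on that list 9 were tested, of which 3 were higher, 4 were lower and 2 did not pass (24.1% and 23.1% of all genes were higher and lower), with a median log2 fold change of -0.04. This list too includes genes with a read in few cells, at most 1.27% of either state in any mouse. The monocyte chemoattractant Ccl2 fell by 1.58 (SE 0.35, adjusted p = 0.0025) and Il6 fell by 1.07 (SE 0.22, adjusted p = 0.0013). Il1b was higher by 1.69 (SE 0.39, adjusted p = 0.0031) and the macrophage chemokine Ccl3 by 1.15 (SE 0.17, adjusted p = 0.00011, all by edgeR). Mapk8, a kinase that phosphorylates the Jun protein, fell by 0.66 (SE 0.19, adjusted p = 0.012, edgeR).

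Each pair of the 4 genes was detected together more often than the separate shares would give, and other pairs of panel genes were not compared. All 4 had a read in 18.1% to 41.2% of microglia across mice (mean 27.6%), and none had a read in 10.5% to 15.7% (mean 14.1%). On average the 2 most common combinations were all 4 genes and Jun, Junb and Egr1 without Fosb, the latter in 23.7% ± 6.86 of microglia (SD, n = 4 mice). In Abi3+/+ mouse 2, Jun, Junb and Egr1 (14.2%) came after Jun, Fosb and Egr1 (14.7%) and none of the 4 (15.5%). Fosb was detected without any of the other 3 in 0.30% ± 0.13 of microglia. Cells with none of the 4 made up 6.89% ± 2.14 of Apoe-Cst7-, 9.59% ± 2.15 of Apoe+Cst7-, 17.4% ± 3.51 of Apoe-Cst7+ and 31.5% ± 8.72 of Apoe+Cst7+ cells. Cells with all 4 made up 32.2% ± 11.8 of Apoe-Cst7- and 15.8% ± 3.44 of Apoe+Cst7+ cells. Both measures moved the same way in each mouse.

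**Figure D3:**
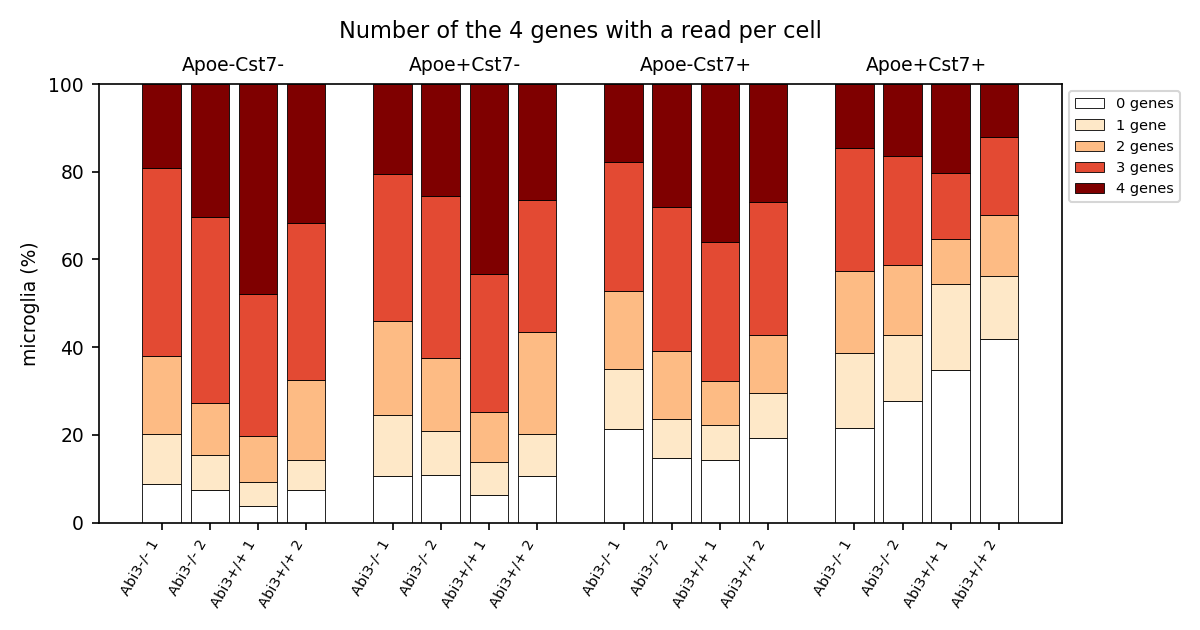
Percent of microglia (y axis) with a read of 0 to 4 of the genes, in each state and mouse, as stacked bars that add to 100. The part with none grows from 6.89% on average in Apoe-Cst7- to 31.5% in Apoe+Cst7+ cells.

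The mean odds ratio of detection of Jun and Egr1 was 13.8, and its values were 7.24 and 11.002 for Abi3-/- 1 and 2 and 14.2 and 22.6 for Abi3+/+ 1 and 2. Both were detected in 61.6% of microglia on average, against 51.5% from their separate shares. Egr1 had a read in 75.1%, 78.2%, 87.4% and 88.8% of Jun-positive microglia and in 29.4%, 24.6%, 32.9% and 26.1% of Jun-negative microglia of the same mice. Across the other pairs, the mean odds ratio was 12.001 for Junb and Egr1, 10.2 for Jun and Junb, 9.47 for Jun and Fosb, 6.93 for Fosb and Egr1 and 5.64 for Junb and Fosb. Its range over mice was 3.39 to 22.6 over all pairs, so no pair in any mouse was near 1. The range of Junb and Fosb (3.39 to 7.86) lay below that of Junb and Egr1 (7.98 to 16.8), and no test of the order of the pairs was made. Abi3+/+ mouse 2, where Junb was low, set which pair came first. Without it the mean was 10.8 for Jun and Egr1 and 13.3 for Junb and Egr1, and the latter was higher in each of the other 3 mice. Thinning to 10000 reads gave means of 5.56 to 13.6. These are descriptions across cells that share a library and a state mixture. Within Apoe-Cst7- cells alone the mean odds ratios were 4.25 to 11.9, and within Apoe+Cst7+ cells they were 7.90 to 12.4.

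**Figure D4:**
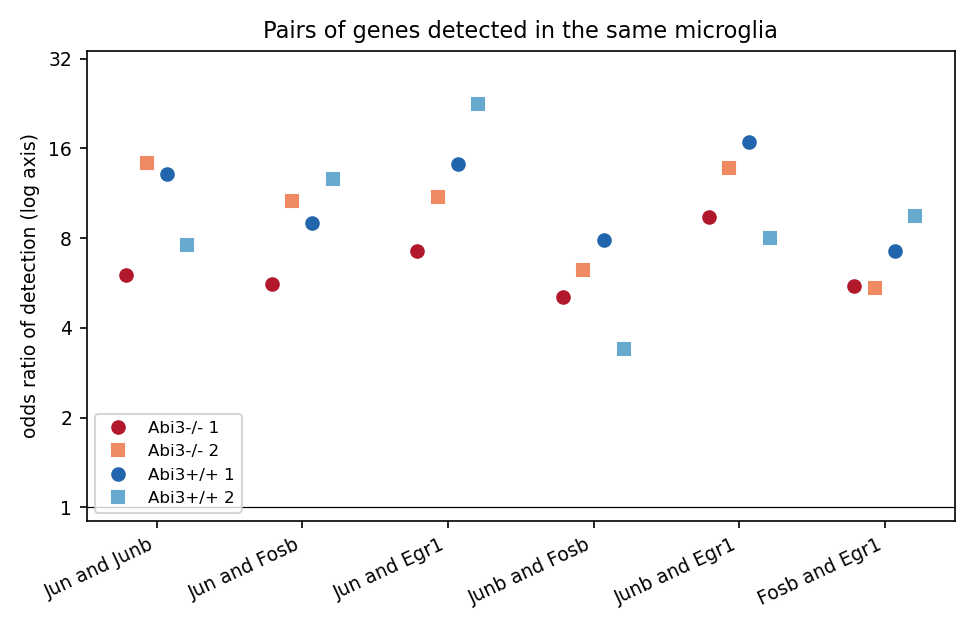
Odds ratio of detection for each pair of genes in microglia (y axis, log scale), with 1 point per mouse and a line at 1, where detection would be independent. The lowest point is 3.39 (Junb and Fosb in Abi3+/+ 2) and the highest 22.6 (Jun and Egr1 in Abi3+/+ 2).

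Over microglial cells, the correlation of log-normalized values (log2 of 1 plus reads per 10000) was positive for each pair. Pearson's r, averaged over the 4 mice, was 0.57 for Jun and Egr1, 0.54 for Junb and Egr1, 0.48 for Jun and Junb, 0.38 for Jun and Fosb, 0.37 for Fosb and Egr1 and 0.31 for Junb and Fosb. Without Abi3+/+ mouse 2 it was 0.54 for Jun and Egr1 and 0.59 for Junb and Egr1. Each gene was compared with 153 panel genes that had a read in at least 5% of microglia, the other members included. Outside the members, Dusp1 was most like each of the 4 genes, with r of 0.51 ± 0.05 for Jun, 0.44 ± 0.07 for Junb, 0.46 ± 0.06 for Fosb and 0.51 ± 0.05 for Egr1 (SD, n = 4 mice). For Fosb this exceeded its correlation with any of the other members. Btg1 was next for Jun (0.37), Junb (0.36) and Egr1 (0.39), while for Fosb it was Rgs1 (0.24) and then Btg1 (0.22). The third gene was Tmem173 for Jun (0.30) and Egr1 (0.31) and Selplg for Junb (0.29). Within Apoe-Cst7- cells alone r with Dusp1 was 0.42, 0.35, 0.42 and 0.41 for Jun, Junb, Fosb and Egr1, while Tmem173 and Selplg were not among the 8 most like genes of any of them. Cst7, named after its values were seen and used to set the states, had the lowest r with each of them, from -0.17 for Fosb to -0.40 for Egr1.

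Between genotypes, the question was whether the genes differed in microglia that lack Abi3. Fosb had 1202 and 2163 TMM-scaled CPM in the microglia of Abi3-/- mice 1 and 2, and 3981 and 4747 in those of Abi3+/+ mice 1 and 2. Both Abi3-/- mice lay below both Abi3+/+ mice, as they did for 17.0% of the 329 genes tested, with a log2 fold change of -1.37 (SE 0.34, unadjusted p = 0.017, adjusted p = 0.65, edgeR). DESeq2 gave Fosb -1.42 with an adjusted p of 0.0079, in a fit that called 2 of 297 genes lower and 8 higher. Egr1 had 11130 and 16488 in Abi3-/- and 19002 and 23440 in Abi3+/+ microglia, also without overlap, with a log2 fold change of -0.62 (SE 0.26, adjusted p = 0.67). Jun had 6474 and 9240 against 8348 and 11557, which overlap, with a log2 fold change of -0.34 (SE 0.28, adjusted p = 0.88).

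Junb had 3752 and 3889 CPM in Abi3-/- microglia, and 4894 and 1005 in those of Abi3+/+ mice 1 and 2. Its log2 fold change of 0.37 (SE 0.79, adjusted p = 0.97, edgeR) took its direction from 1 library. Without Abi3+/+ mouse 2 it was -0.36, and without Abi3+/+ mouse 1 it was 1.93. Of all 329 genes tested between genotypes, edgeR called 0.0% (0 genes), while 22 had an unadjusted p under 0.05. DESeq2 called 10 of 297 genes, 8 higher and 2 lower, and limma called 0 of 329.

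**Figure D5:**
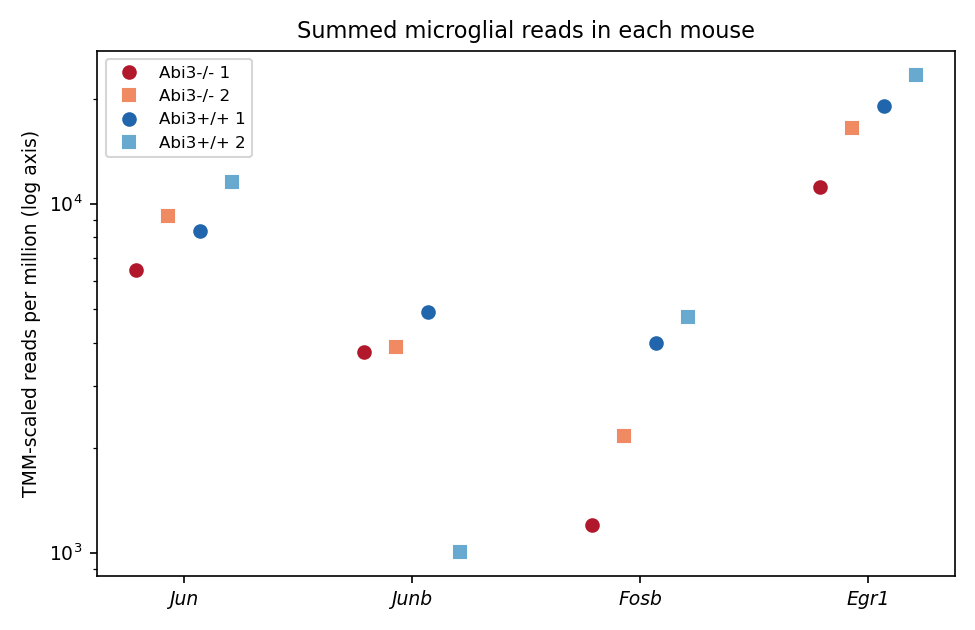
TMM-scaled CPM of each gene (y axis, log scale) in the summed microglia of each mouse. Each Abi3-/- mouse lies under each Abi3+/+ mouse for Fosb and Egr1, Jun overlaps, and Junb in Abi3+/+ 2 sits at 1005, under the 3752 to 4894 of the other mice.

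Shares of positive microglia gave the same directions. The mean share differed between Abi3-/- and Abi3+/+ mice by -19.6 percentage points for Fosb, -12.8 for Egr1, -7.03 for Jun and 10.3 for Junb. The exact two-sided permutation test over mice gave p = 0.33 for Fosb, Egr1 and Jun, which is the smallest that 2 against 2 mice allow, and p = 1 for Junb. With Benjamini-Hochberg adjustment over the 4 genes none could pass 0.05.

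The state mixture differed between genotypes, so the comparison was repeated within states. In Apoe-Cst7- cells the log2 fold change between genotypes was -1.45 (SE 0.33, adjusted p = 0.44, edgeR) for Fosb, -0.51 (SE 0.24) for Egr1, -0.34 (SE 0.23) for Jun and 0.42 (SE 0.78) for Junb. In Apoe+Cst7+ cells it was -0.75 (SE 0.28, adjusted p = 0.85) for Fosb, -0.02 (SE 0.21) for Egr1, 0.08 (SE 0.28) for Jun and 0.81 (SE 0.70) for Junb. Among 289 and 276 genes tested in these states, 0.0% were called in either, with 23 and 13 at an unadjusted p under 0.05. The share of cells with a read of Jun differed by -7.57 percentage points (Abi3-/- minus Abi3+/+) in Apoe-Cst7- cells and by 11.1 in Apoe+Cst7+ cells, with the genotypes apart in both. For Egr1 these differences were -11.02 and 7.68 points, also apart in both. For Junb they were 12.4 points, with overlap, and 21.7, apart, and for Fosb -24.0, apart, and -3.41, with overlap. In Apoe+Cst7- cells the differences were -8.03 points for Jun, -20.2 for Fosb and -12.3 for Egr1, all apart, and 13.5 for Junb, with overlap, where 37.5% of the 299 genes were apart in either direction. In Apoe-Cst7+ cells they were -15.9 for Fosb and -11.6 for Egr1, apart, and -5.66 for Jun and 11.3 for Junb, with overlap, where 30.4% of the genes were apart. Fosb also had a lower share in both Abi3-/- mice than in either Abi3+/+ mouse in 3 classes outside the microglia. The means were 2.38% against 8.97% in T cell-like, 4.11% against 20.5% in neutrophil-like and 12.5% against 67.5% in macrophage-like cells, the last 2 from as few as 5 and 3 cells per mouse. Of the 356 genes tested between classes, 7.87%, 3.09% and 8.43% were lower in this way in these 3 classes. Jun was also lower in this way in macrophage-like cells, at 45.8% against 80%. In B cell-like cells the genotypes overlapped for Fosb, with a read in 0 of 4 and 1 of 19 Abi3-/- and in 0 of 3 and 6 of 23 Abi3+/+ cells. In T cell-like cells its pooled share (5.24%) lay between those of the microglial complement genes C1qb (4.90%) and C1qa (5.94%). Genotypes were apart, in either direction, for 41.5% of the 289 genes in Apoe-Cst7- cells and 52.2% of the 276 genes in Apoe+Cst7+ cells. The exact permutation test gave p = 0.33, the smallest possible, wherever the genotypes were apart.

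The fall from Apoe-Cst7- to Apoe+Cst7+ cells was then compared between genotypes. The share of Jun-positive cells fell by 13.3 and 23.0 percentage points in Abi3-/- mice 1 and 2, and by 37.4 and 36.2 in Abi3+/+ mice 1 and 2. That of Fosb fell by 3.22 and 7.97 points in Abi3-/- and by 25.8 and 26.7 in Abi3+/+ mice. That of Egr1 fell by 21.8 and 33.5 points in Abi3-/- and by 46.5 and 46.2 in Abi3+/+ mice. For these 3 genes both Abi3-/- falls lay below both Abi3+/+ falls, as they did for 35.1% of the 299 genes tested, with an exact permutation p of 0.33, the smallest possible. The fall of Fosb in Abi3-/- mouse 1 was bounded by its Apoe-Cst7- share of 25.2%, which is under the fall in either Abi3+/+ mouse. Junb fell by 17.1 and 28.1 points in Abi3-/- and by 39.0 and 24.8 in Abi3+/+ mice, which overlap (exact permutation p = 0.67).

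In the summed reads, the interaction of genotype with state was 0.42 (SE 0.10, adjusted p = 0.072) for Jun, 0.72 (SE 0.23, adjusted p = 0.16) for Fosb, 0.52 (SE 0.19, adjusted p = 0.19) for Egr1 and 0.32 (SE 0.19, adjusted p = 0.45) for Junb, all in log2 units by edgeR. A positive value is a smaller fall in Abi3-/- mice, and the median over the 299 genes tested was 0.13. None of the 4 passed the adjusted threshold, which 1.0% of the genes did. Jun passed in edgeR after thinning to 10000 reads (adjusted p = 0.032), by total reads (0.037) and in DESeq2 (0.045), settings that called 18 of 285, 8 of 299 and 28 of 299 genes. Fosb passed in DESeq2 (adjusted p = 0.026) and limma (0.021, with 4 of 299 genes called), and Egr1 passed in edgeR without Abi3-/- mouse 2 (0.042, with 7 of 299).

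Outside the microglia, Jun, Fosb and Egr1 were rare in T cell-like cells. Jun had a read in 1.11%, 4.76%, 7.94% and 2.86% of the T cell-like cells of Abi3-/- mice 1 and 2 and Abi3+/+ mice 1 and 2. Egr1 had a read in 2.22%, 3.17%, 12.7% and 2.86% of them. Fosb had a read in 0 of 90 cells of Abi3-/- mouse 1, which allows a share of cells with a read of up to 3.33% by the limit of 3 cells and 4.02% by the exact interval, and in 4.76%, 7.94% and 10.0% of the others. C1qa and C1qb, complement genes of microglia, had reads in 5.94% and 4.90% of the same 286 cells. The pooled shares were 3.85% for Jun, 4.90% for Egr1 and 5.24% for Fosb. That of Fosb was above C1qb, and none was higher than that of C1qa. In single libraries this did not always hold. In Abi3+/+ mouse 2 Fosb had a read in 7 of 70 T cell-like cells, C1qa in 3 and C1qb in 1. In Abi3+/+ mouse 1 Egr1 had a read in 8 of 63, Jun and Fosb in 5 each, C1qa in 3 and C1qb in 6. Median reads per cell were 14888 to 17478 in T cell-like cells and 19793 to 24757 in microglia.

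Junb was the exception in T cell-like cells, with a read in 46.7%, 34.9%, 54.0% and 17.1% of them in the same order of mice. Its pooled share was 38.5%, far above the complement genes, and the low value is again Abi3+/+ mouse 2. Against microglia, the log2 fold change in T cell-like cells was -2.88 (SE 0.44, adjusted p = 0.0060) for Junb, -5.23 (SE 1.66, adjusted p = 0.040) for Fosb, -7.39 (SE 0.94, adjusted p = 0.0036) for Jun and -8.90 (SE 0.92, adjusted p = 0.0021) for Egr1 (edgeR). All 4 were called lower, as were 28.9% of the 356 genes. Without mouse 2 of Abi3-/-, or without mouse 1 or 2 of Abi3+/+, Fosb missed the threshold, at adjusted p of 0.13, 0.091 and 0.13, and it also did so with scaling by total reads (0.078) and setting classes by 2 markers whatever the Trem2 reads (0.072).

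In neutrophil-like cells Junb was again the gene with the highest share of positive cells. Junb had a read in 5 of 5, 50 of 73, 4 of 5 and 6 of 19 neutrophil-like cells of Abi3-/- mice 1 and 2 and Abi3+/+ mice 1 and 2. Pooled over the 102 cells, Junb had a read in 63.7%, Jun in 15.7%, Egr1 in 13.7% and Fosb in 10.8%, against 5.88% for C1qa. Only Abi3-/- mouse 2 and Abi3+/+ mouse 2 had the 10 cells needed for a sum. Against microglia the log2 fold change was -0.80 (SE 0.56, adjusted p = 0.33) for Junb, -3.31 (SE 2.08, adjusted p = 0.29) for Fosb, -4.09 (SE 1.14, adjusted p = 0.046) for Jun and -4.20 (SE 1.02, adjusted p = 0.031) for Egr1 (edgeR), in a comparison where 22.8% of genes were called lower. Without any 1 mouse Jun missed the threshold, at adjusted p of 0.055 to 0.15, and so did Egr1 without any mouse but Abi3+/+ 1, at 0.059 to 0.17. Junb passed in edgeR by total reads (adjusted p = 0.046), where 102 of 356 genes were called lower. Fosb passed in limma (0.012, with 106 of 356 lower) and in edgeR without Abi3-/- mouse 1 (0.036, with 55 of 349 lower).

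The macrophage-like class was small, with 3, 12, 5 and 4 cells per mouse. Ccr2 had a read in 23 of these 24 cells, Cd163 in 9, F13a1 in 5, Cx3cr1 in 4, C1qa in 1 and Trem2, by the rule, in none. The rule was set for macrophages or monocytes and does not tell them apart, and it leaves out such cells with a read of Trem2. Jun had a read in 15 of 24 cells, Junb in 13, Egr1 in 12 and Fosb in 9. The shares ranged over mice from 33.3% to 100% for Jun and from 0% to 75.0% for Egr1, so no order among the genes can be given. Only Abi3-/- mouse 2 had enough cells for a sum, and the log2 fold changes against microglia rest on it. Their errors and p-values take the spread from the sums of the other classes, and this lone sample is assumed to vary like them. They were -1.39 (SE 1.22) for Egr1, -1.48 (SE 0.78) for Junb, -2.39 (SE 1.42) for Jun and -3.18 (SE 2.81) for Fosb, with adjusted p of 0.58, 0.33, 0.40 and 0.58 (edgeR), and 3.93% of genes were called lower. With such cells counted whatever their Trem2 reads, 3 mice gave sums, and Junb (-2.18, adjusted p = 0.013) and Egr1 (-3.30, adjusted p = 0.040) passed, as 37 of 344 genes did in the lower direction.

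Across classes, the mean share of cells with a read of Jun went down from microglia (74.5% ± 4.83) over macrophage-like (62.9% ± 27.6) and neutrophil-like (12.1% ± 9.02) to T cell-like cells (4.17% ± 2.92, all SD, n = 4 mice). Microglia and macrophage-like cells did not differ beyond this spread, nor did neutrophil-like and T cell-like cells. In the same sequence of classes, the shares of Egr1 were 68.8% ± 7.59, 36.2% ± 33.01, 10.4% ± 9.37 and 5.24% ± 4.99. Those of Fosb were 37.9% ± 11.8, 40% ± 33.9, 12.3% ± 10.1 and 5.67% ± 4.35. Those of Junb were 67.2% ± 13.97, 46.2% ± 20.2, 70.0% ± 28.7 and 38.2% ± 16.1, and the ranges of mean ± SD overlapped between neighbouring classes in that sequence. Cells with none of the 4 genes made up 54.0% ± 15.0 of T cell-like and 14.1% ± 2.40 of microglial cells.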

How the data were processed

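Reads of 397 panel genes were measured in brain cells of 4 mice. Default settings of the BD Rhapsody Targeted Analysis Pipeline were used by the authors, who deposited error-corrected read counts for each gene in each cell, neither normalized nor filtered by cell. The submitters' processing notes name mm10. Reads of a cell are not molecules and are not independent of each other.

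The cell limits above follow the study's methods, with its lower limit taken as 40 genes. Doublets were not called beyond the upper read limit. Cells were classed by marker reads (3 per class) and not by clustering. Reads were summed per mouse and state or class (sums under 10 cells left out) and tested with edgeR 4.0.16 (quasi-likelihood, filterByExpr, TMM, Benjamini-Hochberg over all genes tested, threshold 0.05), in R 4.3.3. Standard errors came from the fold change and F. DESeq2 1.42.0, limma 3.58.1 (log2 of 1 plus reads per 10000, averaged per mouse), other scaling, filters, class rules, thinning and leaving out each mouse were alternatives. The tests were checked on simulated counts with 4-fold changes, drawn around the same means in every mouse. That check does not cover smaller changes or a library that differs from the others. The genes, lists and states were chosen with earlier results of these data known. Genes other than the 4 were named as the up to 4 largest called changes of a list, or the 3 most correlated genes. A further gene tested beside the lists is not reported here.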

Additional observations from a re-analysis of the deposited data

How the results depend on the processing

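In the comparison of Apoe+Cst7+ with Apoe-Cst7- microglia, the 4 genes passed the threshold in every alternative but 1, the fit without mouse as a block, where 2 passed. For Apoe-Cst7+ cells, where 0 passed, 3 passed with scaling by total reads, DESeq2, states set by 10 reads or a library size without Apoe, Cst7 and Trem2. In that comparison 1 passed after thinning (14 of 285 genes lower) or with 20000 reads or more per cell (6 of 286 lower). With 1 mouse left out, 0 to 2 passed. For Apoe+Cst7- cells, 1 passed with states set by 10 reads, where 12 of 298 genes were called lower. For genotype by state, 1 passed with total reads, thinning or limma, 2 with DESeq2 and 0 to 1 with 1 mouse left out. For genotype in microglia, 1 passed in DESeq2, which called 10 of 297 genes. For macrophage-like cells, 2 passed whatever the Trem2 reads, with 3 markers (37 of 344 genes lower) or 2 markers (47 of 350 lower). The limma calls are left out, as the main rule gave this class 1 sum. For neutrophil-like cells, where 2 passed, 1 passed after thinning or with 2 markers, 0 with 2 markers whatever the Trem2 reads, and 0 to 1 with 1 mouse left out, where the 1 was Fosb or Egr1. The causes were not tested. No share by class and no odds ratio of co-detection moved beyond the spread between mice. Their alternatives were thinning and counting a cell as positive from 10 reads on, which could hardly move them. In microglia the median positive cell had far more than 10 reads, and thinning seldom removed all reads of a gene. For Jun in Abi3-/- mouse 1 the share was 68.0%, 68.0% from 10 reads on and 68.2% after thinning. Whether shares or odds ratios depend on depth or threshold was therefore not tested.

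Of the fold changes of the 4 genes under alternatives, 366 kept direction and call, 34 gained a call, 18 lost one and 6 turned direction, the last all with 1 mouse left out. Between genotypes, Junb ranged from -0.36 to 1.93 in all microglia and from -0.37 to 2.01 in Apoe-Cst7- cells. In Apoe+Cst7+ cells Egr1 ranged from -0.21 to 0.16 and Jun from -0.16 to 0.34. Without turning direction, Jun ranged from -0.62 to -0.09, Egr1 from -0.93 to -0.40 and Fosb from -1.86 to -1.09 in all microglia. Fosb ranged from -1.92 to -1.09 in Apoe-Cst7- and from -1.09 to -0.48 in Apoe+Cst7+ cells. The share difference of Junb ranged from -5.18 to 25.8 percentage points. The number of genes called ranged from 98 to 169 for Apoe+Cst7+, 7 to 69 for Apoe-Cst7+, 1 to 40 for Apoe+Cst7-, 0 to 28 for genotype by state, 136 to 258 for T cell-like, 63 to 192 for neutrophil-like and 0 to 117 for macrophage-like cells. The replicate block was tried because mice of both genotypes carry numbers 1 and 2. It left 0 genes called, with Fosb at -1.43, Egr1 at -0.64, Jun at -0.34 and Junb at 0.78 between genotypes. Over 209 genes the deviations of same-numbered mice correlated at 0.30. The numbers are names and no source pairs the mice.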

Other observations

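B cell-like cells were too few for a comparison. Of the 49 cells, Jun had a read in 11, Junb in 10, Egr1 in 8 and Fosb in 7, while C1qa had a read in 3. By library, Junb had a read in 2 of 23 such cells of Abi3+/+ mouse 2 and in 5 of 19 of Abi3-/- mouse 2.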
